A study of Saccharomyces cerevisiae with 6 samples.

Results

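Contacts between the arms of a chromosome across its centromere were examined at 10 kb in 2 Hi-C maps of budding yeast (Saccharomyces cerevisiae). A pair of bins was taken when the bins lay on opposite arms and both midpoints were 10 to 200 kb from the centromere. These are called cross-arm pairs. The rule covers 14 chromosomes and leaves out III, XII and the mitochondrial genome. It gave 4042 pairs, and 4000 of them, built from 471 bins, had a value in both bins. They stand among 713415 pairs of nuclear bins with a value. Chromosomal position alone chose them, and no contact value was used. The 8 chromosomes with long arms on both sides contributed 361 pairs each, and the others contributed 70 (I), 133 (IX), 168 (VI), 190 (VIII), 266 (V) and 285 (XIV).

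Both maps belong to the same group, -met, and are called replicates 1 and 2. They come from MATa cells of strain yMD291, grown in synthetic media without methionine. The strain carries the markers his3-11,15, trp1-1 and the double leucine allele leu2-3 leu2-112, together with ura3-1, can1-100 and ade2-1. It also has tor1-1 with fpr::NAT and bar1. Fluorescent and untagged repressors are expressed from HIS3::REV1pr-tetR-mCherry-REV1pr-LacI-GFP and, at a second site, from ADE2::REV1pr-LacI-REV1pr-tetR. Chromosome XV holds a LacO array at 497047 and a TetO array at 834487. The LacO array is 168 kb from the centromere of XV (mid-bin distance) and so lies inside the window, while the TetO array lies outside it. The methods describe the replicates as biological. With a single group, no difference between conditions can be tested, and means ± SD describe the spread between the 2 maps.

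In Hi-C, chromatin is fixed, cut and religated, so that the number of ligation products between a pair of bins reports how often they were close in the nucleus. Yeast chromosomes are held in the Rabl arrangement: kinetochores tie the centromeres to the spindle pole body, and the arms extend from there toward the telomeres, which lie at the nuclear envelope. Both arms of a chromosome then leave the same anchored point, much like the legs of a hairpin, with loci at similar distances from the centromere at similar heights. The centromere that forms the turn is a short sequence of 3 elements. CDEI is bound by Cbf1, CDEII is an AT-rich stretch that wraps the Cse4 nucleosome, and CDEIII is bound by the CBF3 complex.

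On the 14 chromosomes the annotated centromeres were 111 to 119 bases long, and CDEII was 86.9% to 97.6% A and T. The midpoint of each lay within 0.0455 kb of the position used to define the arms. Shown are the centromeres of the chromosomes whose arms gave the lowest values (VIII, XIV), high values outside the repeats of chromosome I (X), and opposite imbalances between the arms (XI, XVI), as described below. The sequences are those of the R64 (sacCer3) RefSeq assembly, 5′ to 3′ on the strand on which CDEI comes first, with CDEI and CDEIII in capitals.
CEN8 (chrVIII:105586-105703, minus strand): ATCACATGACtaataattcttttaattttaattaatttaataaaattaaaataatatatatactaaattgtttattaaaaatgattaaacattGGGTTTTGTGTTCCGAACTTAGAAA
CEN10 (chrX:436307-436425, minus strand): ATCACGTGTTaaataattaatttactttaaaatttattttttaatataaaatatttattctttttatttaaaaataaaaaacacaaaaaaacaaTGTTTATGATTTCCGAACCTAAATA
CEN11 (chrXI:440129-440246, minus strand): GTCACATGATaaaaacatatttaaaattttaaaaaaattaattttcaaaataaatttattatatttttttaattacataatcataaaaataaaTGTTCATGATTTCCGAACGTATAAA
CEN14 (chrXIV:628758-628875, plus strand): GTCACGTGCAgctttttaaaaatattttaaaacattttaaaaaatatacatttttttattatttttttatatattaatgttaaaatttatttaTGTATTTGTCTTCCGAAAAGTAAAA
CEN16 (chrXVI:555957-556073, plus strand): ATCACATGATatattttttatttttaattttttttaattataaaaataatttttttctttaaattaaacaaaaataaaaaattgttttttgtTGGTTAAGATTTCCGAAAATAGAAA
All 5 have the same order of elements, and none of the 10 kb bins that hold a centromere is part of a cross-arm pair.

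The maps hold 3760159 and 3518507 contacts, of which cross-arm pairs made up 42679 (1.14%) and 39564 (1.12%). The median pair had 7 contacts in each map, and 108 and 118 pairs had none. Single pairs were therefore noisy: over the 3967 cross-arm pairs whose bins share no 50-base word in the reference, the ratios defined below correlated between the maps with r = 0.504 and rho = 0.545. Pairs that share a bin are not independent, so these are descriptions.

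To ask whether the arms meet more often across the centromere than separation along the chromosome alone would give, the balanced signal of each cross-arm pair was divided by the mean signal of same-arm pairs at equal separation in the same map. Same-arm pairs were all 25942 pairs on 1 arm of the 14 chromosomes with midpoints at least 10 kb from the centromere. The cross-arm pairs had a mean ratio of 1.41 in replicate 1 and 1.43 in replicate 2, or 1.42 ± 0.0156 (SD, n = 2). The median pair was at 1.26 and 1.28. Without the 33 pairs whose bins share sequence the mean was 1.37 in both maps. In summed contacts the excess was smaller, 42679 against 34942 expected in replicate 1, a ratio of 1.22 (95% exact Poisson interval 1.21 to 1.23), and 39564 against 32577 in replicate 2, a ratio of 1.21 (1.20 to 1.23). Sums are dominated by close pairs, which had the lowest ratios. These intervals, like all intervals below, cover counting error only.

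The ratio varied with separation and crossed 1. Separation is the sum of the centromere distances of a pair, so its classes also differ in those distances. Over pairs that share no word, those up to 40 kb apart were below same-arm pairs, at 0.826 and 0.801 (40 pairs). At 50 to 60 kb the ratio was 0.964 and 0.959. It was above 1 from 70 to 80 kb on (1.16 and 1.12), reached 1.30 and 1.28 at 150 to 180 kb and stood at 1.76 in both maps beyond 300 kb (385 pairs). Cross-arm pairs thus went from below to above their same-arm reference within the first 80 kb of separation, in both maps.

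**Figure D1:**
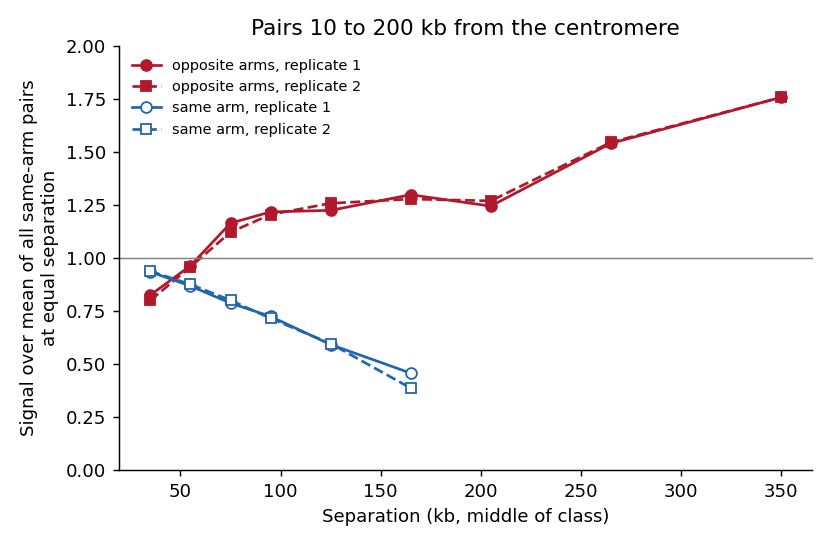
Signal of pairs whose bins lie 10 to 200 kb from the centromere, divided by the mean signal of all same-arm pairs at equal separation (y axis), against separation in kb (x axis), for cross-arm pairs (red) and same-arm pairs (blue) in replicates 1 and 2, without pairs that share a 50-base word. Cross-arm pairs climb from 0.813 to 1.76 on average while same-arm pairs in the same window decline from 0.936 to 0.423.

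The same-arm reference itself depended on where on the arm it was taken. Same-arm pairs with both bins 10 to 200 kb from the centromere were below the mean of all same-arm pairs at every separation they reached, from 0.935 and 0.938 up to 40 kb to 0.458 and 0.387 at 150 to 180 kb (199 pairs). Against these pairs alone, which exist only up to 180 kb, the 1752 cross-arm pairs at those separations had 2.48 and 3.29. The reference is smallest in number at the longest separations. The 1752 include pairs that share a word. Among them is a pair of chromosome I, 180 kb apart, at 144 and 217 times the mean of all same-arm pairs. The value without such pairs was not computed for this reference. With same-arm pairs of the same chromosome only, the mean was 1.51 in both maps. Bin factors computed from contacts between chromosomes alone, in place of the deposited balance, gave 1.16 ± 0.0116 (SD, n = 2). The mean ratio was above 1 in all of these, and its size differed.

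Bins were then anchored at a fixed distance from the centromere. Partners on the other arm were compared with outward partners on their own arm at equal separation. Anchors 30 to 50 kb out met partners 110 to 200 kb away on the other arm at 1.20 ± 0.00116 (SD, n = 2, 490 pairs) and on their own arm at 0.553 ± 0.0215 (400 pairs), a 2.16-fold difference. For anchors 50 to 70 kb out the values were 1.64 ± 0.0162 and 0.654 ± 0.0169, the widest gap of the classes compared at 2.50-fold. The order turned around for anchors 150 to 200 kb out, which met partners 110 to 200 kb away on the other arm at 0.564 ± 0.0197 and on their own arm at 1.02 ± 0.00667. At that separation the partner across the centromere can only be a bin close to it, far from the anchor's own height on the arm. The own-arm partners lie outward of the anchor, beyond 200 kb from the centromere, so the partners of the 2 kinds differ in position. This holds for the other anchors too. At equal separation an own-arm partner lies farther from the centromere than a partner across it, so the gaps above include that difference.

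Single pairs were tested with a two-sided exact Poisson test of the contacts of both maps together against the expectation from same-arm pairs, with Benjamini-Hochberg adjustment over all 27976 pairs within the 14 chromosomes that were 20 to 390 kb apart. A pair was called where the adjusted p was under 0.05 and both maps were on the same side of 1. Of the 4000 cross-arm pairs, 722 (18.1%) were called higher, where 7.00% of all tested pairs were, and 148 (3.70%) were called lower, where 6.26% were. Irrespective of calls, 2059 cross-arm pairs were above 1 in both maps (51.5%, against 31.9% of all tested pairs) and 968 were below 1 in both (24.2%, against 36.8%). Same-arm pairs with both bins in the same window had 169 calls higher and 909 lower of 3497. With the balance from contacts between chromosomes, the calls for cross-arm pairs were 427 higher and 446 lower, so that the share of higher calls went from 83.0% to 48.9%. With replicate 1 alone 263 pairs were called higher and 31 lower, and with replicate 2 alone 218 and 27, since fewer contacts enter the test.

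Calls separated by position. Among the 886 cross-arm pairs with a bin 10 to 30 kb from the centromere, 37 were called higher and 141 lower. Among the 3114 pairs with both bins over 30 kb out, 685 were called higher and 7 lower. Pairs whose centromere distances differed by at most 20 kb were called higher in 297 of 818 cases (36.3%) and lower in 22, whereas pairs that differed by more than 100 kb were called higher in 13 of 842 (1.54%) and lower in 70. Under the deposited balance, nearly all lower calls thus involved a bin next to the centromere, and calls higher were concentrated where both distances were alike. The positions of the 446 lower calls under the balance from contacts between chromosomes are not given here.

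The matrix of the 2 centromere distances shows the same arrangement for all 3967 pairs that share no word. Ratios were high along the diagonal of equal distances, with 1.82 and 1.82 when both bins were 50 to 70 kb out and 2.09 and 2.17 when both were 70 to 90 kb out. They remained high to the end of the window, at 2.15 and 1.89 for bins 170 to 190 kb and 190 to 200 kb out. Bins 10 to 30 kb out formed a low margin. With each other they had 0.865 and 0.841, and with bins 170 to 190 kb out 0.410 and 0.419. Low values were not particular to contacts across the centromere. At separations over 40 and up to 100 kb these bins were at 0.980 ± 0.00640 (SD, n = 2) across it. With outward partners on their own arm, which lie farther out, they were at 0.651 ± 0.0132. Over 100 and up to 200 kb the values were 0.640 ± 0.00561 and 0.442 ± 0.0329. Under the balance from contacts between chromosomes the means of the maps were 0.651 and 0.329 for these classes and 1.63 for bins both 70 to 90 kb out, so the diagonal and the low margin were both present on a lower scale.

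**Figure D2:**
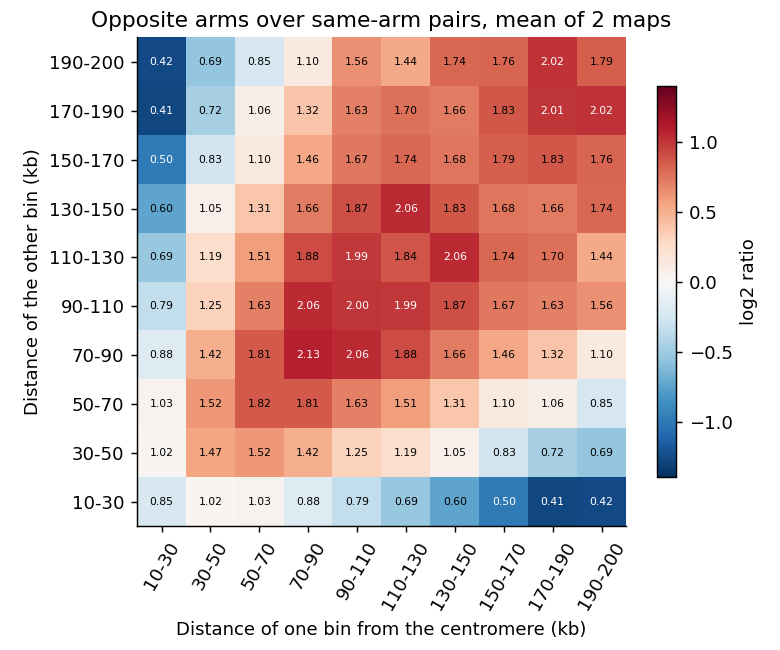
Mean ratio of cross-arm pairs to same-arm pairs at equal separation, by the distance of each bin from the centromere (both axes, in kb), averaged over 2 maps without pairs that share a 50-base word; colour is the log2 ratio and the printed value is the ratio. The diagonal from 50 kb outward holds values of 1.79 to 2.13, and the row and column at 10 to 30 kb run from 1.03 down to 0.41.

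Because separation is the sum of the centromere distances, pairs at the same separation can lie at equal or at very different distances from the centromere. At each separation, pairs whose distances differed by at most 20 kb (395 pairs) were compared with pairs that differed by more than 100 kb (842 pairs), with each pair divided by the mean cross-arm signal at its separation. The like pairs had 2.54 and 2.61 times the signal of the unlike pairs, or 2.57 ± 0.0537 (SD, n = 2). With midpoints from 30 kb outward the value was 1.97 and 2.04. At a given separation, a larger difference also puts the inner bin nearer the centromere. Likeness of the distances and closeness to the centromere therefore cannot be told apart in this comparison. The decline with the difference was graded. Among pairs 160 to 240 kb apart, the ratio to same-arm pairs was 2.02 and 2.11 where the distances differed by under 20 kb (205 pairs), 1.39 and 1.38 at 60 to 80 kb, 0.946 and 0.970 at 100 to 120 kb, and 0.406 and 0.404 at 160 to 180 kb (78 pairs). The first group had 4517 contacts where 2194 were expected, and the last 334 where 818 were expected. In this set the ratio to all same-arm pairs crossed 1 between differences of 80 to 100 kb (1.25 and 1.21) and 100 to 120 kb. Over all separations the crossing depended on position. Bins 10 to 30 kb out were at 0.903 and 0.865 with bins 70 to 90 kb out. Bins 70 to 90 kb out were at 1.28 and 1.36 with bins 170 to 190 kb out.

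The signal itself, with no division, did not follow separation. Bins 90 to 110 kb from the centromere had their highest mean signal across it with bins 70 to 90 kb out, at 12.2 and 11.8 balanced contacts per pair. With bins 10 to 30 kb out, which lie nearer along the chromosome, the signal was 7.94 and 7.80. A locus on 1 arm thus met the facing stretch of the other arm more often than it met the nearer DNA beside the centromere of that arm. Under the balance from contacts between chromosomes the corresponding values were 9.77 and 9.51 against 6.28 and 6.05. For anchors up to 50 kb out, no such displacement was present, and the highest signal was with the class next to the centromere.

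The same profile was present between chromosomes. Bins 90 to 110 kb out had their highest mean signal with arms of other chromosomes also at 70 to 90 kb, at 2.91 and 2.72, and 1.86 and 1.76 with bins 10 to 30 kb out. The arms of a chromosome therefore shared the distance preference with arms in general, at a higher level. Over both distance classes, cross-arm pairs had 4.51 and 4.55 times the signal of pairs on different chromosomes, or 4.53 ± 0.0301 (SD, n = 2). This factor was highest next to the centromere, at 7.97 ± 0.316 (SD, n = 2) where both bins were 10 to 30 kb out. It was 5.16 where both were 50 to 70 kb out, 3.88 at 90 to 110 kb and 2.78 at 170 to 190 kb. At the outer edge of the window the arms of a chromosome still met each other more often than they met arms of other chromosomes.

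**Figure D3:**
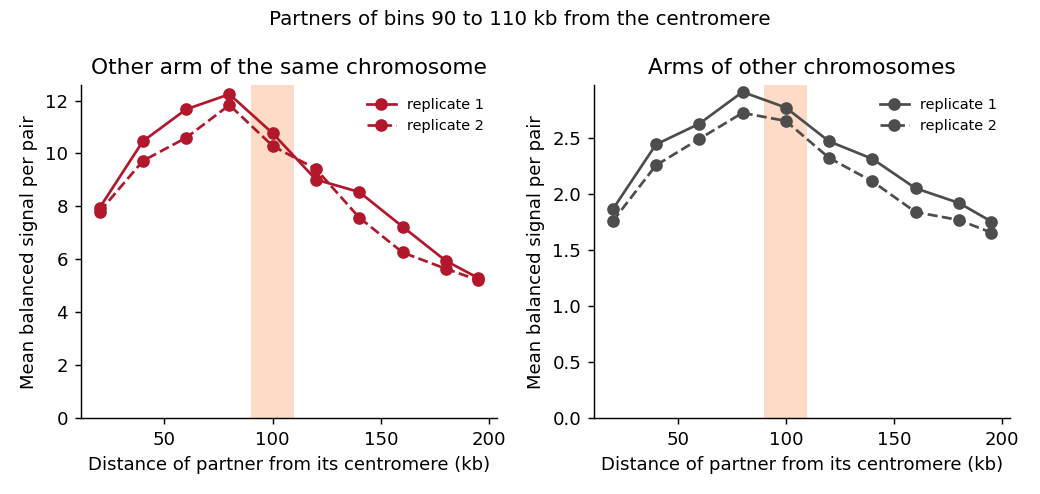
Mean balanced signal per pair (y axes, different scales) of bins 90 to 110 kb from the centromere with partners on the other arm of the same chromosome (left) and on other chromosomes (right), by the partner's distance from its own centromere in kb (x axis), for replicates 1 and 2. The shaded band marks equal distance, and the highest point is at 70 to 90 kb in both panels, 12.2 and 11.8 on the left and 2.91 and 2.72 on the right.

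Of the 14 chromosomes, 13 had a mean ratio to same-arm pairs above 1 in both maps, and VIII had 0.978 and 1.00. Under the balance from contacts between chromosomes V (0.894 and 0.919), VIII (0.687 and 0.692), IX (0.796 and 0.775) and XIV (0.882 and 0.901) were below 1 in both maps. Chromosomes I and X had 1.67 and 1.72 and 1.61 and 1.59 without pairs that share a word. Chromosomes with a short arm contribute other distances than those with long arms, so each pair was also divided by the mean ratio of all 14 chromosomes at the same pair of distance classes. On this scale 7 chromosomes were within 0.9 to 1.1 in both maps and 3 above 1.1. Chromosomes VIII (0.738 and 0.769) and XIV (0.804 and 0.819) were lowest, X (1.17 and 1.16) and VI (1.13 and 1.11) were high, and I was highest at 1.53 and 1.64. The maps differed by at most 0.108 on this scale. Under the balance from contacts between chromosomes VIII, XIV and X had 0.662, 0.822 and 1.25, while V joined the low end at 0.814.

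**Figure D4:**
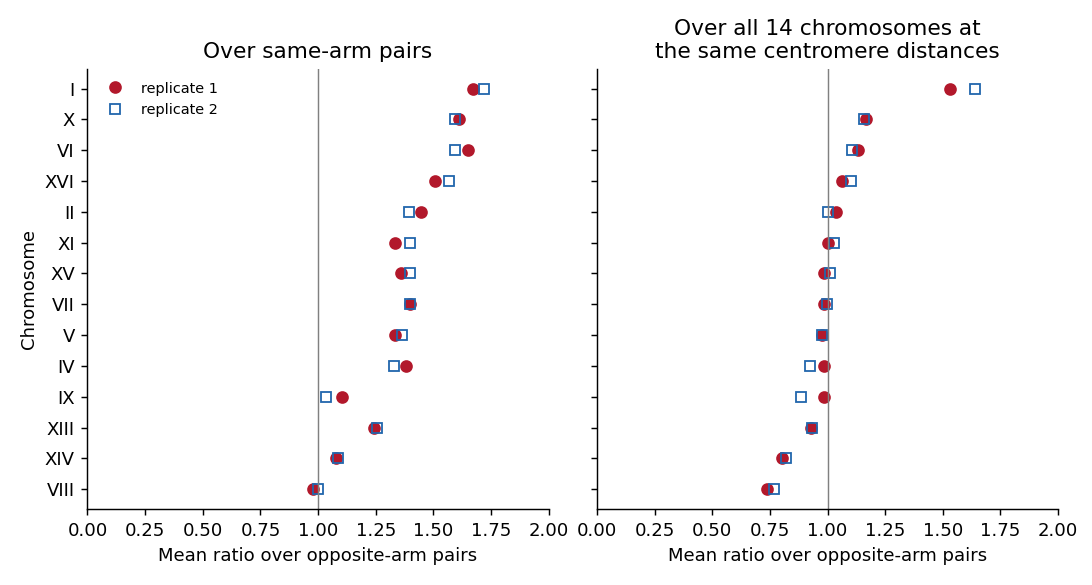
Mean over cross-arm pairs of each chromosome (y axis) in replicates 1 and 2, without pairs that share a 50-base word. Left, ratio to same-arm pairs at equal separation; right, the same ratio divided by the mean of all 14 chromosomes at the same centromere distances, on which VIII (0.738 and 0.769) and XIV (0.804 and 0.819) are lowest and I (1.53 and 1.64) is highest.

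The low margin and the preference for like distances were found on nearly all chromosomes. Pairs with both bins 10 to 30 kb out were below same-arm pairs in both maps on 12 of 14 chromosomes, with IX above 1 in both (1.22 and 1.02) and VII on either side (1.02 and 0.887). Each chromosome has at most 4 such pairs. Like pairs exceeded unlike pairs in both maps on all 13 chromosomes that have both kinds, from 2.07 ± 0.0672 (SD, n = 2) on XI to 4.18 ± 0.0664 on VIII. Few pairs entered on IX (6 like and 6 unlike, at 2.23 and 4.03) and VI (12 and 8, at 2.82 and 3.40). Chromosome I, whose right arm is 78.6 kb long, has no unlike pair.

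On chromosome XIV the outer part of the window was lowest. Relative to the 14 chromosomes at the same distances, its pairs with both bins 10 to 50 kb out were at 0.838 ± 0.0127 (SD, n = 2), those with both bins 50 to 110 kb out were at 0.936 ± 0.00536, and those with both bins over 110 kb out were at 0.553 ± 0.00810 (45 pairs, 148 contacts). The right arm of XIV is 155 kb long, so the outer bins on that side include the chromosome end. Chromosome X differed the other way, at 1.09 ± 0.0756 and 1.23 ± 0.0367 in the last 2 of these blocks.

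On chromosome VIII the values differed along the right arm. The right-arm bins at 120001 to 130000 and 130001 to 140000, 19.4 and 29.4 kb from the centromere, were at 1.34 and 1.37 and at 1.13 and 1.39 relative to the 14 chromosomes. From 140001 outward every right-arm bin averaged below 1 in both maps, with the lowest mean of the maps at 240001 to 250000 (0.584 and 0.410). The left arm of VIII lies within the window along its whole length. Pairs whose left bin was 70 to 110 kb and whose right bin was 10 to 50 kb out were at 1.33 ± 0.153 (SD, n = 2), and the mirror pairs, with the right bin farther out, were at 0.508 ± 0.118.

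This imbalance between arms was measured on all chromosomes, as the mean of pairs whose left bin was more than 20 kb farther from the centromere over the mean of pairs whose right bin was, both relative to the 14 chromosomes. Chromosome VIII had 1.93 and 2.11, and XVI had 1.41 and 1.42. Chromosome XI had the opposite sign, 0.660 and 0.646. On XVI the pairs with the left bin at 70 to 110 kb and the right bin at 10 to 50 kb were at 1.51 ± 0.125, and the mirror pairs were at 0.757 ± 0.0145. Chromosome X was nearly symmetric at 0.978 and 0.994, and VII at 1.06 and 1.04. The 3 extreme values stayed on their side of 1 under the balance from contacts between chromosomes, at 1.76, 1.41 and 0.662 as means of the maps. Chromosomes I and IX have few pairs with the right bin farther out (3 and 15).

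**Figure D5:**
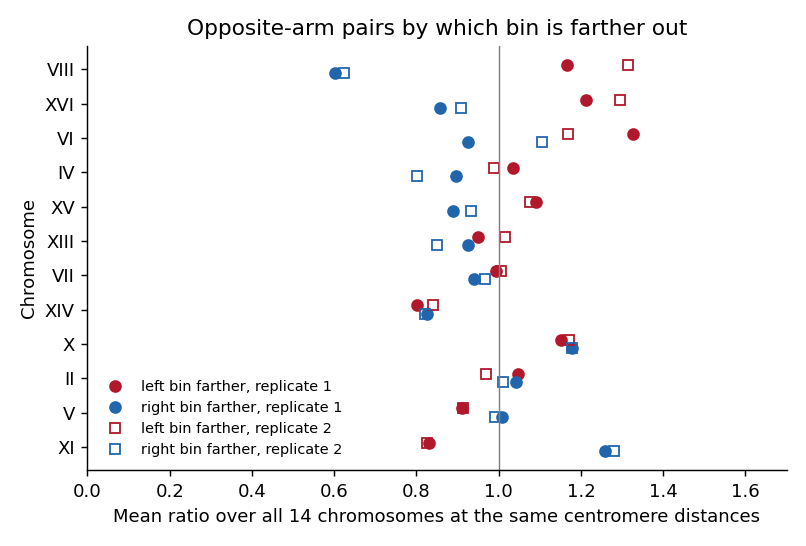
Cross-arm pairs of 12 chromosomes (y axis; I and IX have under 20 pairs of a kind and are left out), split by whether the left (red) or the right (blue) bin lies more than 20 kb farther from the centromere; x axis, mean ratio relative to all 14 chromosomes at the same centromere distances, in replicates 1 (filled) and 2 (open). On VIII left-farther pairs are at 1.17 and 1.31 and right-farther pairs at 0.603 and 0.624, and on XI the order is reversed.

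Among pairs with at least 5 expected contacts whose 2 maps lay on the same side of 1, the highest ratios joined bins near the ends of short chromosomes, and the first 3 were on chromosome I. The bin at 20001 to 30000, which holds FLO9, met 190001 to 200000 (YAT1 and SWH1) at 11.0 and 7.11, with 83 contacts against 9.24 expected. The bin at 10001 to 20000 met the same partner at 6.79 and 9.52, and met 180001 to 190000 (UIP3, PRM9 and MST28) at 5.85 and 4.39. All 3 were called, and their bins share no word. YAT1 encodes a carnitine acetyltransferase, and SWH1 an oxysterol-binding protein homologue.

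Next to them lies the pair of FLO9 (chrI:24000-27968) and FLO1 (chrI:203403-208016), which encode cell wall flocculins with closely related sequences. Their bins share 1603 words of 50 bases, with an identical stretch of 817 bases in opposite orientation at chrI:26322-27138 and chrI:204233-205049. Reads from such copies can be placed at either gene, so the contact cannot be told apart from a read of 1 gene placed at the other. The first 120 bases of the stretch on the FLO9 side (chrI:26322-26441, plus strand of R64) are given to show the kind of repeat.
FLO9 side: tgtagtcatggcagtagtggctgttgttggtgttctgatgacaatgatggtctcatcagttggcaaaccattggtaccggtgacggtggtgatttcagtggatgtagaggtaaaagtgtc
This pair had 102 contacts where 0.567 was expected. With it and the other word-sharing pair of chromosome I, the mean of that chromosome was 4.18 and 5.20 in place of 1.67 and 1.72. The 31 word-sharing pairs of the other chromosomes had a median ratio of 1.49, against 1.32 for pairs that share no word. Away from the left end, chromosome I was close to the others. Pairs of left bins 10 to 110 kb out with right bins 10 to 60 kb out were at 1.03 ± 0.0756 relative to the 14 chromosomes, and pairs with left bins 110 to 150 kb out were at 3.11 ± 0.0781 (18 pairs, 489 contacts against 185 expected). The left bins of these pairs lie within 50 kb of the chromosome end. The search for shared words used the reference sequence, so copies carried by the strain alone were not examined. Whether chromosomes I and VIII of the strain have the same order of sequence as R64 was not examined either.

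The pairs described next, also among the 10 highest, had ratios from 3.67 to 3.97 as means of the maps. On VI the left end (1 to 10000, with COS4 and DDI3) met 240001 to 250000 at 4.39 and 3.55, and 10001 to 20000 (SNO3, SNZ3, THI5 and AGP3, of vitamin and amino acid metabolism) met 260001 to 270000 (IRC7) at 3.84 and 3.61. Away from chromosome ends, 3 were on XVI. The bin with MET12, a methylenetetrahydrofolate reductase, and RAD1, a repair endonuclease subunit (500001 to 510000), met 620001 to 630000 at 4.26 and 3.34, with 39 contacts against 10.2. The bin with PDR12, a weak acid transporter (450001 to 460000), met 640001 to 650000, with GLN1 (glutamine synthetase) and VMA13 (a subunit of the vacuolar ATPase), at 3.92 and 3.55, with 55 contacts against 14.7. The third joined GRX5, a mitochondrial glutaredoxin (440001 to 450000), and the bin of ATG11 and NHP6A (660001 to 670000) at 4.03 and 3.46. On IV the bin of SIT4, a phosphatase (360001 to 370000), met the ENA1, ENA2 and ENA5 sodium pumps (530001 to 540000) at 2.67 and 4.66. The pairs on XVI joined bins 51 and 69, 101 and 89, and 111 and 109 kb from the centromere, and that on IV bins 84.8 and 85.2 kb from it.

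The 5 lowest pairs had no contact in either map. They joined a bin 11 to 24.8 kb from the centromere with a bin 129 to 199 kb out on the other arm. The bin of TAF3 and CHL1 on XVI (530001 to 540000) and that of TKL1, a transketolase (690001 to 700000), were expected to have 14.5 contacts (adjusted p = 4.60e-05, exact Poisson test with Benjamini-Hochberg adjustment). For 0 contacts the upper limit of the exact 95% interval is a ratio of 0.255. The others were the bins of HSL1 and MIC60 on XI (9.51 expected), YAP3 and PCL5 on VIII (9.37), SEC16 and REC8 on XVI (8.41), and NCR1 and PIS1 on XVI (6.37), each named by a gene of each bin. Chromosome XVI thus held 3 of the 5 lowest and 3 of the 10 highest pairs.

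The study's loci were then placed in this arrangement. For each locus 10 to 200 kb from a centromere, the pairs with bins of the other arm within 10 kb of its own distance were averaged. Over all 431 bins with such partners the median ratio was 1.76, from 0.265 to 3.37, with 349 bins above 1 in both maps. It was 1.12 for bins 10 to 50 kb out and 1.99 for bins 50 to 100 kb out. Of the 13 viewpoint genes, 6 had facing bins, in 5 bins. The bin of YBP2 and OLE1 (chrVII:390001-400000) faced chrVII:590001-610000 at 1.96 and 1.73. OLE1 encodes the fatty acid desaturase. PUS2, a pseudouridine synthase, was at 2.04 and 2.32. On XI, MNR2, a magnesium transporter, was at 1.37 and 2.17, MBR1 was at 1.57 and 1.12 and LHS1, an ER chaperone, was at 0.791 and 1.26. The LacO array on XV faced chrXV:150001-170000, the bins of HAL9 and ADH1, at 2.00 and 2.14, with 27 contacts against 13.3 (ratio of sums within 1.34 to 2.96). All but LHS1 were above 1 in both maps, as were most bins at these distances. The summed contacts of MBR1 (12 against 7.48) had an interval that included 1, from 0.829 to 2.80.

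Of the 39 genes of methionine and sulfur metabolism, 12 had facing bins, and 10 of these were above 1 in both maps, with a median of 1.60. Of all 431 bins with facing partners, 349 were above 1 in both maps, with a median of 1.76. The 2 below 1 in both maps lie close to the centromere: MET3, ATP sulfurylase, 18.6 kb out on X, was at 0.865 and 0.889, and CYS3, cystathionine gamma-lyase, 16.5 kb out on I, was at 0.702 and 0.810. MET28, a cofactor of the activator Met4, 29.3 kb out on IX, was at 1.64 and 1.46. The highest were MET31, a DNA-binding partner of Met4 (2.11 and 2.36), and MET12 (2.00 and 2.46), both on XVI. MET10, a sulfite reductase subunit, was at 2.60 and 1.79, CBF1 at 2.13 and 1.64, and MUP1, the high affinity methionine permease, at 1.94 and 1.68. MET1, MET22, MUP3 and HOM3 were between 1.50 and 1.64 as means of the maps. Relative to the 14 chromosomes at the same distances, MET3 was at 1.00 and 1.06 and CYS3 at 0.812 and 0.963, and MET28 was at 1.76 and 1.57. On that scale MET1 (0.739 and 0.963), MET22 (0.759 and 0.969) and MUP1 (0.980 and 0.834) were below 1 in both maps. So were MUP3 (0.701 and 0.760) and HOM3 (0.879 and 0.622). MET12 (1.20 and 1.44) and MET31 (1.06 and 1.19), like MET28, were above 1 in both. MET10 (1.43 and 0.988) and CBF1 (1.12 and 0.788) were on either side.

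Listed loci also formed 8 cross-arm pairs with each other, of which 2 were called, both higher, where 18.1% of all cross-arm pairs were called higher. PUS2 and MUP1, 112 and 98 kb from the centromere of VII, met at 3.13 and 3.20 (45 contacts against 14.2, adjusted p = 1.44e-08, exact Poisson test with Benjamini-Hochberg adjustment). MET22, a phosphatase of sulfur assimilation, and the LacO array on XV met at 3.37 and 2.56 (25 contacts against 8.36, adjusted p = 0.000174 in the same exact test). The bin next to PUS2, with YBP2 and OLE1, met MUP1 at 2.03 and 1.63 and was not called. These 2 pairs are named because they were called, after their values were seen.

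Gene classes were compared by pairs in which both bins hold the class. The 181 pairs of bins with tRNA genes had a median ratio of 1.15, below the 1.32 of all 3967 pairs that share no word, and the 45 pairs of bins with ribosomal protein genes had 1.46. Relative to the 14 chromosomes at the same centromere distances, the medians were 0.976 and 1.06, against 0.972 for all pairs. On that scale the median of tRNA pairs was not below that of all pairs, and the difference was not tested. The relative value of tRNA pairs was 1.04 in replicate 1 and 0.953 in replicate 2. Of the tRNA pairs 35 (19.3%) were called higher and 13 lower, and of the ribosomal protein pairs 9 (20%) and 0, where 18.0% of all 3967 pairs were called higher. No cross-arm pair that shares no word joined bins with full-length Ty elements on both sides, although 28 bins hold one.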

How the data were processed

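Hi-C libraries of 2 replicates were made with DpnII and analysed by the authors with HiC-Pro on sacCer3, per the labels. Per pair of 10 kb bins, the deposited signal gives contacts balanced within each map by iterative correction. How reads were filtered is not given in the sources used here. Since balancing sets every bin to the same total, a bin with strong local contacts has less signal left elsewhere. The other 4 Hi-C samples were not analysed here.

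Whole contacts were recovered by dividing each deposited signal by the factors of its bins, and were whole within 0.01. The factors were found from the most repeated ratios between bins in contacts between chromosomes. They were then adjusted by ratios of small whole numbers. An unlisted pair of bins with values counted as 0. Bin edges, centromeres and genes came from RefSeq R64, which matches the deposited bin table in every chromosome length. Computation used Python 3.11.15, numpy 2.4.6, pandas 2.3.3 and scipy 1.17.1. Pairs 20 to 390 kb apart were tested, and the steps were tested on simulated data.

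The cross-arm pairs, gene lists and rules were chosen with earlier results of these data known. Named are 9 of the 10 highest pairs (the other is not reported here) and the 5 lowest pairs by mean ratio, with at least 5 expected contacts and both maps above or both below 1, the listed loci, and each chromosome. Genes that start in a bin, or its listed locus, name it. Alternatives were another set of bins kept or of same-arm pairs, summed contacts, a balance from contacts between chromosomes, other limits on distance, removal of chromosome ends, of XV, of pairs that share a word or of a replicate, and an adjusted p under 0.01.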

Additional observations from a re-analysis of the deposited data

How the results depend on the processing

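The 3 mean ratios were above 1 under every alternative run, and their sizes moved. Calls for cross-arm pairs were mostly higher except with the balance from contacts between chromosomes (427 higher, 446 lower). The mean ratio of cross-arm to same-arm pairs (1.42) was 2.89 against same-arm pairs in the same window. That value is for pairs up to 180 kb apart, including pairs that share a word. The ratio was 1.51 against the same chromosome, 1.22 in summed contacts, 1.16 with the balance from contacts between chromosomes and 1.39 without chromosome ends. It was 1.61 from 30 kb outward, 1.37 within 100 kb, and 1.37 without pairs that share a word. Leaving out a replicate gave 1.41 to 1.43. Like over unlike distances (2.57) was 2.48 with filtered bins, 2.70 in summed contacts, 2.50 with the other balance, 2.74 without ends and 2.01 from 30 kb outward, with 2.54 to 2.61 for 1 replicate. It has no value within 100 kb. Own arms over other chromosomes (4.53) was 4.27 with filtered bins, 4.42 in summed contacts, 4.46 without ends, 4.10 from 30 kb outward, 5.64 within 100 kb and 4.40 without shared words, with 4.51 to 4.55 for 1 replicate. Calls higher (722) were 969 of 1752 pairs against the same window, 839 against the same chromosome, 427 with the other balance, 306 within 100 kb, 428 at an adjusted p under 0.01 and 218 to 263 with 1 replicate. Calls lower (148) were 34 against the same window, 446 with the other balance, 7 from 30 kb outward, 68 within 100 kb, 65 at 0.01 and 27 to 31 with 1 replicate. Summed contacts give no calls. The causes were not tested, except that fewer contacts or pairs entered where a replicate or distances were left out. No paired analysis was possible because there is 1 group. With a median of 7 contacts per pair and map, single pairs are limited by depth.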

Other observations

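Chromosomes III and XII, which are outside the rule, were measured in the same way with their annotated centromeres (chrIII:114385-114501 and chrXII:150828-150947). Cross-arm pairs of III that share no word (192 pairs) had a mean ratio to same-arm pairs of the 14 chromosomes of 2.69 and 2.74. Relative to the 14 chromosomes at the same centromere distances III was at 2.25 ± 0.0502 (SD, n = 2), above each of them. Chromosome XII (246 pairs) was at 0.968 and 0.959 and, on the relative scale, at 0.754 ± 0.0198, next to VIII. III carries the silent mating loci near its ends, and XII carries the ribosomal DNA on its right arm.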
